A study of Mus musculus with 2 samples.

Results

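The genes described are the ligands and receptors of the glial cell line-derived neurotrophic factor (GDNF) family. They comprise 4 ligand genes (Gdnf, Nrtn, Artn and Pspn), 4 co-receptor genes (Gfra1, Gfra2, Gfra3 and Gfra4) and the receptor kinase gene Ret. All 9 were found by gene name among 31784 gene rows, and each had 1 row. The family was taken up because Gdnf had already been seen near the bottom of the knockout over wild-type ranking of these same arrays. The members' values are therefore given as a description, with no test beyond the limma fit over all gene rows. Pituitary total RNA of Brdt-/- mice was compared with that of wild-type mice on 2 two-colour arrays. Each array set 1 pool of each genotype against the other, and each pool held RNA of 3 mice. All mice were 8 weeks old on a C57BL/6 background. The labels give the wild-type channel as male and give no sex for the knockout channel. The knockout mice carried the tm1a allele, in which a lacZ trapping cassette and a neomycin cassette lie in the fourth intron of Brdt. The labels name no Cre or cell type promoter that would limit the disruption to a tissue. Knockout RNA carried Cy5 on array 1 and Cy3 on array 2.

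GDNF family ligands are secreted dimers related to transforming growth factor beta. Each binds a co-receptor anchored in the membrane by a lipid, and the pair then activates the receptor tyrosine kinase RET. GDNF acts mainly through Gfra1, neurturin through Gfra2, artemin through Gfra3 and persephin through Gfra4. In the pituitary, RET and Gfra1 have been described in rat and human somatotrophs, the growth hormone cells, and Gfra2 in a niche of stem cells. In the testis, where Brdt is best known, GDNF from Sertoli cells maintains the spermatogonial stem cells.

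Each value is the log2 of the knockout signal over the wild-type signal, and array 1 is given first. Ratios hold no level, so it is unknown whether a member's signal stood above background, and the labelled tissue could not be checked against its defining markers. In bulk RNA, fewer cells of a type and less RNA per cell cannot be told apart. The direction is assumed and not settled. No label states which channel stands over which. The 10 spike-in rows kept their sign from one column to the other although the genotypes changed dyes. Cy5 over Cy3 was therefore assumed for both, and the sign of array 2 was reversed (turned). That reading holds only if each spike-in mixture was used with a fixed dye, which no label states. Over the gene rows the deposited columns correlated at 0.26 (Pearson), a sign that turning inverts. With array 2 turned, 18717 of 31784 gene rows were neither higher nor lower on both arrays. Past 1.5-fold on both arrays with a common sign lay 258 genes with array 2 turned and 1008 as deposited. Brdt, the targeted gene, was at -0.30 and -0.43 (mean -0.36 ± 0.10, SD, n = 2), and the position of its probe relative to the cassette is unknown here. Across the array 0 of 31784 gene rows (0.0%) passed limma's adjusted threshold of 0.05. Of the same 31784 rows, 703 had an unadjusted p under 0.05 in limma, and 1 of these was a ligand of the family. Nothing is read from that, since the members were chosen with their values known. The ordinary one-sample statistic called 2 after the same adjustment, and no member of the family is among those 2.

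Gdnf was lower in the knockout pools on both arrays. The log2 ratio was -1.58 on array 1, which is 2.99-fold lower, and -1.74 on array 2, which is 3.35-fold lower. The mean was -1.66 ± 0.12 (SD, n = 2), or 3.16-fold lower, and the arrays differed by 0.17. Only 10 gene rows, Gdnf included, had a mean ratio this low or lower. On single arrays, 0.541% of gene rows lay at or below Gdnf on array 1 and 0.189% on array 2. The rows at or below Gdnf on both arrays were 3, Gdnf itself and the nuclear receptor genes Nr4a1 and Nr4a2. Gdnf was the 1 member beyond 1.5-fold on both arrays with a common sign. Of all gene rows 0.453% were lower past 1.5-fold on both arrays, and nothing is read from that comparison, since Gdnf was chosen by it.

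The promoter of Gdnf is shown because this gene carries the largest ratio of the family. The promoters of Pspn and Gfra4 are shown beside it, as the other ligand past 1.5-fold on an array and as the other member lower on both arrays. Each sequence is the 250 bases before an annotated start of the gene, the first of both starts listed for Gdnf and for Gfra4, in RefSeq's table for GRCm38.p6, written 5′ to 3′ on the strand of the gene. The window of Gdnf is chr15:7809798-7810047 on the plus strand. The window of Pspn is chr17:57000106-57000355 and that of Gfra4 chr2:131043089-131043338, both on the minus strand. Capitals mark matches to the motifs searched.
Gdnf: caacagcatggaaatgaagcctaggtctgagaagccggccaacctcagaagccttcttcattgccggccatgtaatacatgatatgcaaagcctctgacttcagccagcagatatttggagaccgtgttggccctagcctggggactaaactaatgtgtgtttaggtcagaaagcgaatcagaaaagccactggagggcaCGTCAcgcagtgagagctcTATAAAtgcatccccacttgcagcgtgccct
Pspn: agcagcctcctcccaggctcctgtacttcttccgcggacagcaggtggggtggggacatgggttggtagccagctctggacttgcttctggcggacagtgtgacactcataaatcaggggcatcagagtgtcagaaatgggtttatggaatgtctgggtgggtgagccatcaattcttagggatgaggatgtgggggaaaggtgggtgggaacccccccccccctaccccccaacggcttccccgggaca
Gfra4: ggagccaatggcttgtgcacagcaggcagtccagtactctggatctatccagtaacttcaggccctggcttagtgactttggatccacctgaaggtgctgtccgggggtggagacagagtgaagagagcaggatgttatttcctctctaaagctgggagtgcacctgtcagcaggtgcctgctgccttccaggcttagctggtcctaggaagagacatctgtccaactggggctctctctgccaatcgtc

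The motifs were searched on both strands. They were the cyclic AMP response element TGACGTCA and its core TGACG, the AP-1 site TGACTCA, the TATA box TATAAA, the NR4A monomer site AAAGGTCA and the EGR site GCGNGGGCG. The core lies within the full response element, so each full match is also a core match. In the window of Gdnf the core occurred once, on the opposite strand, from 50 to 46 bases before the start. A TATA box match lay from 31 to 26 bases before the start. Of 32851 promoter windows of the same length, 17.8% held the core and 12.4% the TATA box letters. The full response element occurred in 1.55% of them, the AP-1 site in 4.46%, the NR4A site in 1.34% and the EGR site in 4.70%, and the window of Gdnf held none of these 4. The windows of Pspn and Gfra4 held no match to any of the motifs, which says only that these letters are not in these windows. RefSeq's table held 8 windows for 6 of the 9 members. The only matches among the 8 were those in the window of Gdnf shown above. Ret, Gfra2 and Gfra3 had no entry.

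The other ligands did not share the ratio of Gdnf. Pspn, the gene of persephin, was at 0.30 on array 1 and -1.43 on array 2, so its mean of -0.56 ± 1.23 (SD, n = 2) lay within the spread between arrays. On array 2 it was 2.69-fold lower, and 0.680% of gene rows were as low or lower there. The knockout pool of array 1 was 1.23-fold higher for the same gene, at a rank where 83.3% of gene rows lay at or below it. Artn, the gene of artemin, which acts on sensory and sympathetic neurons, was slightly higher on both arrays, at 0.24 and 0.15 (mean 0.19 ± 0.07, SD, n = 2). Nrtn, the gene of neurturin, which acts on parasympathetic and enteric neurons, was at -0.11 and 0.0054. Its ratio was therefore near 1 on both arrays. Among the 4 ligands, 1 was lower on both arrays, 1 was higher on both and 2 had opposite signs.

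**Figure D1:**
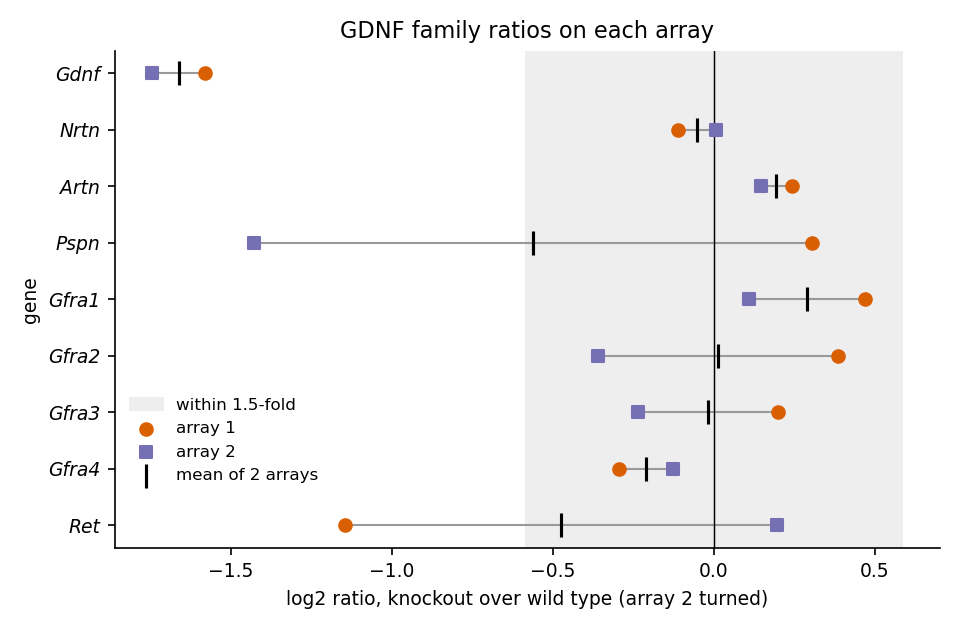
Log2 ratio of knockout over wild type (x axis) for each family gene (y axis) on array 1 (circles) and array 2 (squares, turned), with the mean of both arrays as a black tick and 1.5-fold either way shaded. Gdnf lies left of the shading on both arrays at -1.58 and -1.74, while Pspn and Ret lie outside it on 1 array each.

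The co-receptor genes all lay within 1.5-fold on both arrays. Gfra1, the co-receptor that GDNF prefers, was at 0.47 and 0.11 (mean 0.29 ± 0.25, SD, n = 2), higher on both arrays and opposite in sign to Gdnf. Its arrays differed by 0.36, which is more than the mean itself. Gfra4, the persephin co-receptor, was at -0.29 and -0.13 (mean -0.21 ± 0.12, SD, n = 2), lower on both arrays. Gfra2, the neurturin co-receptor, was at 0.39 and -0.36, and Gfra3, the artemin co-receptor, at 0.20 and -0.23. Both of these had nearly equal and opposite ratios, with means of 0.013 and -0.017. Thus 1 of the 4 co-receptor genes was higher on both arrays, 1 was lower on both and 2 had opposite signs.

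Ret, which encodes the signalling receptor shared by all 4 ligands, was at -1.14 on array 1 and 0.19 on array 2. Array 1 gave a 2.21-fold lower value in the knockout pool, and 1.61% of gene rows were as low or lower on that array. Array 2 gave a 1.14-fold higher value. The mean of -0.47 ± 0.95 (SD, n = 2) lay within the spread between arrays.

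Over the whole family 2 of 9 genes were lower on both arrays (Gdnf and Gfra4), 2 were higher on both (Artn and Gfra1) and 5 had opposite signs. Of all gene rows 19.5% were lower on both arrays and 21.6% were higher on both. The median over the family was 0.20 for array 1 and -0.13 for array 2. The median of its mean ratios was -0.053, against 0.0025 for all gene rows. The median size of the mean ratio was 0.21 in the family and 0.11 over all gene rows. With each array centred on its median, 3 members instead of 2 were lower on both arrays, Nrtn being the addition. Past 1.5-fold on a single array lay Gdnf and Ret on array 1, and Gdnf and Pspn on array 2. The corresponding shares of all gene rows were 13.8% on array 1 and 9.19% on array 2.

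**Figure D2:**
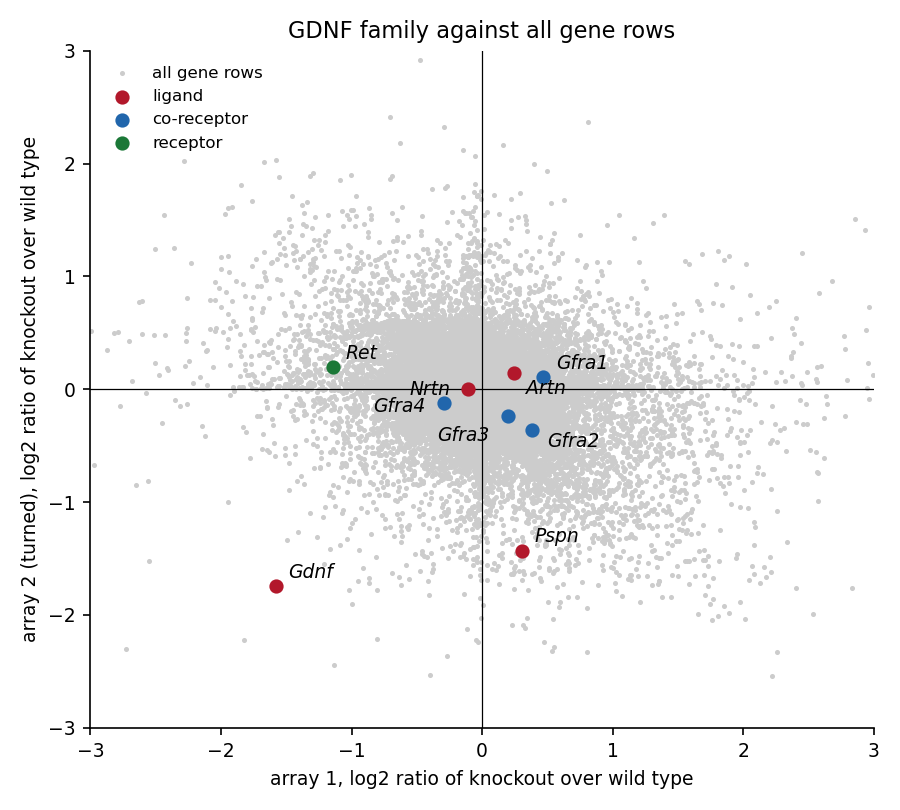
Log2 ratio of knockout over wild type on array 1 (x axis) and array 2, turned (y axis), for all gene rows (grey) and the family's ligands, co-receptors and receptor (coloured); 40 gene rows beyond 3 on either axis are not drawn. Gdnf lies in the sparse lower left corner, Pspn is low on array 2 and Ret on array 1, and the remaining 6 genes lie in the cloud around 0.

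Because the dyes were exchanged, the 2 arrays can be split into a half-sum and a half-difference. The half-sum takes up the genotype, and the half-difference changes sign with the dye. Differences between the pools enter both parts and cannot be told apart from genotype or dye in either. For Gdnf the half-sum was -1.66 and the half-difference 0.083. For Pspn these were -0.56 and 0.87, and for Ret -0.47 and -0.67, so the half-difference was the larger part for both. A difference between arrays at least as large as that of Pspn, 1.73, was found in 3.42% of gene rows. For Ret, with a difference of 1.34, that share was 6.36%. Gfra2 and Gfra3 had half-differences of 0.37 and 0.22 beside half-sums near 0.

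**Figure D3:**
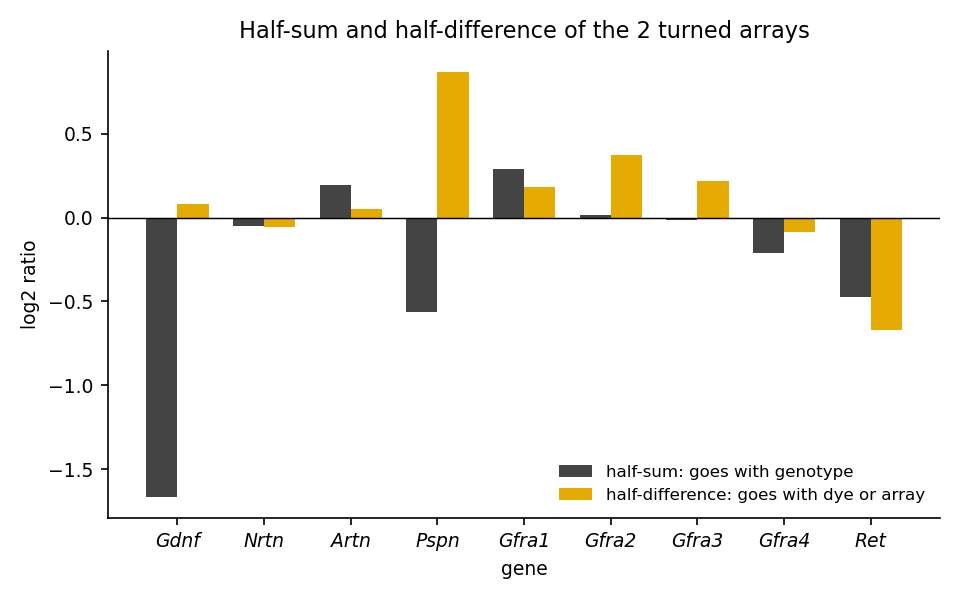
Half-sum (dark bars) and half-difference (yellow bars, array 1 minus array 2) of the log2 ratios on the 2 arrays for each family gene. The half-sum of Gdnf, at -1.66, is far larger than its half-difference of 0.083, while for Pspn, Ret, Gfra2, Gfra3 and, by a small margin, Nrtn the half-difference is the larger.

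The signs given for array 2, and the counts over both arrays, depend on turning that array, while those of array 1 do not. With array 2 left as deposited, both parts change places, and Gdnf had opposite signs on the arrays, -1.58 and 1.74, with a mean of 0.083. Ret and Nrtn were then the 2 members lower on both arrays, with Ret at -1.14 and -0.19 and a mean of -0.67. Pspn, Gfra2 and Gfra3 were the 3 members higher on both, with means of 0.87, 0.37 and 0.22. Artn, Gfra1 and Gfra4 then had opposite signs on the arrays, and their means of 0.048, 0.18 and -0.084 kept their sign. Were the deposited folds Cy3 over Cy5, the sizes would stand and each sign would invert.

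The genes most like Gdnf were those with the smallest Euclidean distance to its 2 log2 ratios, among 17222 other gene rows that carry a RefSeq symbol and are not named as predicted gene models or cDNA clones. The measure rests on 2 arrays. The nearest was Sik1, a kinase gene induced by cyclic AMP, at a distance of 0.42 with ratios of -1.21 and -1.55. Gem, a small GTP-binding protein gene, lay at the same rounded distance of 0.42, with ratios of -1.49 and -1.33. The next were the homeobox gene Hoxc12 (distance 0.51), the ubiquitin-like gene Ubd (0.54) and the orphan nuclear receptor gene Nr4a1 (0.54). None of these 5 belongs to the family or to the lists below.

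The counts given for the lists below stand beside shares over all gene rows of 21.6% higher and 19.5% lower on both arrays. No gene row of the array passed limma's adjusted threshold, so no list could hold a gene that did. Proteins that pass on or end the RET signal were measured through 24 genes. Of these 5 were higher and 7 lower on both arrays, 0 passed limma's adjusted threshold, and the median of the mean ratios was 0.029. Grb10, an adaptor that binds RET and insulin receptors, was lowest, at -0.90 and -0.55 (mean -0.73 ± 0.25, SD, n = 2). Dok6, an adaptor of RET, was at -0.98 and 0.03, and Shc3, a neuronal adaptor, at 0.87 and -0.18. Both thus had a sizeable ratio on array 1 alone. Among 6 genes of other GDNF binders and co-receptor relatives, means ran from -0.13 to 0.19. They included Sdc3, a syndecan that binds GDNF, at 0.16 and 0.21, the co-receptor relative Gas1 at 0.08 and 0.19, and Sorl1, a sorting receptor for GDNF, at -0.04 and -0.22.

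The death pathway described for RET without ligand in rodent somatotroph cells showed no common direction. Of its 8 genes 2 were higher and 0 lower on both arrays, and the median of the mean ratios was -0.034. The members higher on both arrays were Prkcd, a protein kinase C gene, at 0.18 and 0.24, and Cebpa, a transcription factor gene, at 0.29 and 0.13. Cdkn2a, the gene of a brake on p53 turnover and on the cell cycle, was at -0.91 and 0.08. Of 10 genes known to be raised by GDNF in mouse spermatogonial stem cells, 3 were higher and 2 lower on both arrays, with a median of 0.041. Egr2, a zinc finger factor gene that many stimuli induce, was at -0.48 and -1.61 and had the lowest mean. Mycn, a growth-promoting transcription factor gene, was at 1.02 and 0.06, and Cxcr4, a chemokine receptor gene, at 0.82 and 0.04. In neither list did a gene pass limma's adjusted threshold, which no gene row of the array passed.

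Other neurotrophic families were set beside the GDNF family. Of 9 neurotrophin and neurotrophin receptor genes, 2 were higher and 2 lower on both arrays. Bdnf, the brain-derived neurotrophic factor gene, was lower, at -0.80 and -0.34 (mean -0.57 ± 0.32, SD, n = 2), and Ntrk3, a receptor kinase gene of this family, was at -0.80 and -0.05. Ngfr, the receptor common to the neurotrophins, was higher, at 0.79 and 0.37 (mean 0.58 ± 0.30, SD, n = 2). Of 10 genes of the ciliary neurotrophic factor and leukaemia inhibitory factor family, 1 was higher and 2 lower on both arrays, and Lif was at -0.79 and 0.16. Cntf was at 0.34 and -0.94, and Osm, a related cytokine gene, at -0.10 and -0.48. The lowest mean was -0.57 among the neurotrophin genes and -0.32 in the ciliary neurotrophic factor and leukaemia inhibitory factor family. The 5 genes of unrelated neurotrophic factors had means between -0.088 and 0.17, with Cdnf at 0.19 and 0.16, Mdk at 0.11 and 0.18 and Nenf at -0.03 and 0.28. In these 3 lists 0 genes passed limma's adjusted threshold, which no gene row of the array passed.

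**Figure D4:**
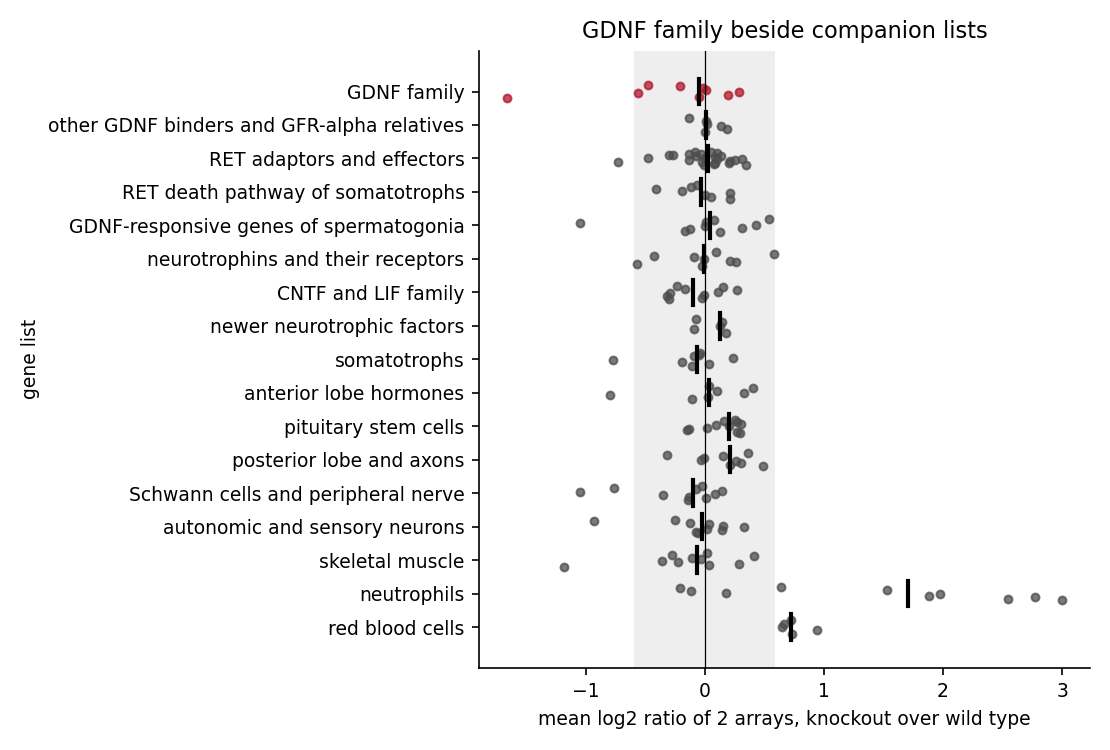
Mean log2 ratio of knockout over wild type over both arrays (x axis) for each gene of the GDNF family (red) and of 16 companion lists (grey), with each list's median as a black bar and 1.5-fold either way shaded. The family's median of -0.053 lies near 0 with Gdnf far to its left, and the neutrophil and red blood cell lists lie to the right.

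Markers of the cells that carry or surround these receptors were examined on the same scale. Here too, 21.6% of all gene rows were higher and 19.5% lower on both arrays. Of 8 somatotroph genes 2 were higher and 1 lower on both arrays, with a median of -0.069. Ghsr, the ghrelin receptor gene, was at -0.60 and -0.94, and Sstr2, a somatostatin receptor gene, at 0.09 and 0.39. Pou1f1, the lineage factor of somatotrophs, was at 0.02 and -0.39. Gh, the growth hormone gene itself, was at 0.43 and -0.65, and Ghrhr, a receptor gene of these cells, at 0.06 and 0.01. Of 7 anterior lobe hormone genes 1 was higher and 1 lower on both arrays. These were Fshb at 0.29 and 0.52 and Pomc at -0.63 and -0.96, and Cga, the common subunit, was at 0.91 and -0.25. Of 11 stem cell genes 7 were higher and 1 lower on both arrays, and the list medians were 0.37 and 0.07. Aldh1a1, a retinoic acid enzyme gene, was at 0.47 and 0.14, and the transcription factor genes Sox2 and Sox9 were at 0.45 and 0.13 and at 0.47 and 0.07. The 3 stem cell genes with opposite signs were S100b at 0.40 and -0.66, Lhx3 at 0.17 and -0.12 and Cdh1 at -0.07 and 0.26. Gfra2, which marks that niche, was at 0.39 and -0.36, with the signs of S100b and Lhx3.

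Cells from outside the anterior lobe that make or receive GDNF ligands could also have been in the dissection. Of 10 skeletal muscle genes 2 were higher and 3 lower on both arrays, and the list medians were -0.01 and -0.19. Ckm, the muscle creatine kinase gene, was at -0.95 and -1.43, while Actn3, of fast fibres, was at 1.21 and -0.39 and Tnnt3, a troponin gene, at -0.85 and 0.13. Of 10 Schwann cell and nerve genes 1 was higher and 2 lower on both arrays, and the list medians were 0.16 and -0.25. The lowest mean of this list was that of Egr2, at -0.48 and -1.61, which is also counted among the GDNF-responsive genes above. The myelin genes Prx and Pmp22 had opposite signs, at 0.80 and -2.33 and at 0.31 and -1.01. Of 10 autonomic and sensory neuron genes 2 were higher and 2 lower on both arrays, and the list medians were -0.05 and -0.0090. Tac1, the gene of substance P, was at -2.63 and 0.78, Prph, a filament gene of peripheral neurons, at 0.53 and 0.12, and Slc18a2, a monoamine transporter gene, at -0.49 and -0.02. Of 9 posterior lobe and axon genes 4 were higher and 1 lower on both arrays, with Avp, the vasopressin gene, at 0.57 and 0.41, Gfap, a glial filament gene, at 1.11 and -0.39, and Slc1a2, a glutamate transporter gene, at 0.21 and -0.84. The part of these cells in the ratios of Gdnf, Pspn and Ret was not tested.

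Blood genes differed between the arrays. Of 10 neutrophil genes 7 were higher and 2 lower on both arrays, and the list medians were 3.40 on array 1 and 0.30 on array 2. S100a8 was at 5.54 and 0.45, and Ltf and S100a9 had means of 2.77 and 2.55. Of 5 red blood cell genes 3 were higher and 0 lower on both arrays, and the list medians were 0.12 and 1.16. The globin gene Hba-a2 was at 0.73 and 1.15, while Hba-a1 was at -0.10 and 1.56 and Alas2, an enzyme gene of haem synthesis, at -0.08 and 1.53, so both of these were high on array 2 alone. The part of blood cells in the ratios of the family was not tested.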

How the data were processed

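Values come from 2 two-colour Agilent arrays of pituitary RNA. The deposited table gives, per gene name, a signed linear fold in each of 2 columns, as read from the values: 0 of them lie between -1 and 1. Scanner settings, background correction, normalization, centring and the handling of several probes per gene are not stated in the sources used here. Per the labels' protocols, labelling used Agilent's two-colour low-input kit. Each deposited fold was put on a signed log2 scale, and array 2 was turned. Of 31840 rows, 56 control rows were left out. Of 31784 gene rows, 20794 carried a RefSeq symbol of GRCm38.p6 and 2748 an older one. Dim genes could not be set apart, and precision is limited by the number of arrays.

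The mean of each gene was set against 0 by limma 3.58.1 (R 4.3.3), using lmFit and eBayes on an intercept, which leaves 1 residual degree of freedom. P-values were adjusted by Benjamini-Hochberg over all gene rows. The procedure was also run on simulated data made by shuffling the values of each array on their own. Such data do not keep the relation between the arrays, so nothing about the limma count is read from them. The pools are the labels' biological replicates. SDs are over 2 arrays. The members and the 16 companion lists were chosen with earlier results of these data known. Named genes were all members, Brdt, the 3 genes of each companion list with the largest mean in size, and the 5 nearest to Gdnf; other genes were chosen after their values were seen. Alternatives were the direction of array 2, centring, scaling, the fold, the genes counted and single arrays.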

Additional observations from a re-analysis of the deposited data

How the results depend on the processing

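With array 2 as deposited, the mean of Gdnf reversed to 0.083, which follows from the turned sign itself, and the number of genes beyond 1.5-fold on both arrays with a common sign moved from 258 to 1008. A limit of 1.2-fold gave 1696 such genes, a limit of 2-fold gave 36, and rows with a RefSeq symbol alone gave 159, as another threshold or fewer rows do by construction. With either array alone, 2921 genes on array 2 and 4393 on array 1 lay past 1.5-fold in either direction. Agreement between the arrays is then no longer required. The limma count of 0 was 2 with the ordinary statistic and 703 at an unadjusted p. Those 2 genes had the same ratio on both arrays to the digits given. Past 1.2-fold on both arrays, 1 member was lower and 0 were higher, and past 1.5-fold the numbers were again 1 and 0. The family median ranged from -0.13 to 0.20 over single arrays. Centring or scaling changed the sign of 0 of the 16 companion medians, while leaving array 2 as deposited changed 6. With array 2 alone 6 of the 16 differed in sign from the main result, and with array 1 alone 5. Scaling array 2 to the spread of array 1 took Gdnf to -1.80. No paired analysis was possible because the labels give 1 group of arrays, each of which already pairs 1 pool of each genotype; a test on a single array has no residual degrees of freedom. Signal over background is unknown.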

Other observations

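The genes on either side of Gdnf were examined after its ratio was seen, as the 3 nearest measured protein-coding genes in each direction in RefSeq's order. Of these 6 genes 1 was lower and 1 higher on both arrays, and their means ran from -0.29 to 0.11. Lifr and Osmr, receptor genes for neurotrophic cytokines that lie on one side of Gdnf, were at -0.04 and 0.03 and at 0.36 and -0.14. Egflam, the nearest on that side, was at -0.08 and 0.08, and Wdr70, the nearest on the other, at -0.10 and 0.26. Cplane1 was lower on both arrays, at -0.27 and -0.31, and Nup155, a nuclear pore gene, higher on both, at 0.16 and 0.01. Each of the 6 had a mean nearer 0 than that of Gdnf. Nothing is read from this, since Gdnf was chosen for its low mean. The 6 neighbours of Pspn had means from -0.32 to 0.48, and Slc25a41, 1 of them, was at -0.29 and 1.25, with signs opposite to those of Pspn on both arrays. The 6 neighbours of Ret had means from -0.088 to 0.23.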
